A study of Homo sapiens with 4 samples.

Results

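Oxidative phosphorylation (OXPHOS) transcripts were examined in H1792, an established human lung cancer cell line, after treatment with ACBI1 or with its solvent DMSO. The genes were chosen by symbol, as the 13 protein-coding genes of mitochondrial DNA and the nuclear genes named as NDUF, SDH, UQCR, COX or ATP5 subunits, with 10 or more counts in at least 2 libraries. Of 61228 features in the count files, 161 symbols matched and 91 met the minimum, of which 13 were mitochondrial and 78 nuclear. All 91 were among the 19159 genes that could be tested. The other 70 matching symbols had at most 6 counts in any library, 64 of them were annotated pseudogenes, and 52 were at 0 in every library.

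The 2 groups, DMSO and ACBI1, had 2 replicate libraries each. Both were of the genotype labelled WT and were collected after 96 h. The labels give the ACBI1 dose as 1 mM. ACBI1 is a degrader that directs the chromatin-remodelling ATPases SMARCA2 and SMARCA4, and their partner PBRM1, to the proteasome. The data thus describe a single line at a single dose and time.

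OXPHOS is the process by which mitochondria turn the energy of nutrients into ATP. Complexes I and II take electrons from NADH and succinate, complex III passes them by cytochrome c to complex IV, and complex V makes ATP from the proton gradient that complexes I, III and IV build. Complexes I, III, IV and V are built from subunits of both genomes, whereas complex II is entirely nuclear.

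The libraries held 64281850 to 86010100 gene counts. Reads in genes were 84.6% to 86.1% of the reads listed. Of the epithelial markers, KRT7, KRT8 and KRT18 were at 58.7 CPM (counts scaled to a common library size) or more in all 4 libraries, and the lung lineage factor NKX2-1 was at 0 in all. The 10 epithelial markers summed to 982 and 1035 CPM in DMSO and to 323 and 202 CPM in ACBI1, where values of a group are given here and below in the order replicate 1, replicate 2. The 5 fibroblast markers summed to 356 and 790 CPM in DMSO and to 71.7 and 223 CPM in ACBI1. The 4 endothelial markers, mostly PECAM1, summed to 12.7 and 49.0 CPM in DMSO and to 0.123 and 0.107 CPM in ACBI1, and the 9 blood markers stayed at or below 0.792 CPM in each library. Of those tested, 4 of 6 epithelial, 3 of 5 fibroblast and 2 of 3 endothelial markers fell, beside 10.6% of all genes, and none of these rose. However, 1 of the 6 epithelial markers had a positive log2 change, 1.32, that edgeR did not call. Of 2 blood markers tested, HBA1 rose, at 0.290 CPM or less in every library. The part of these shifts in the OXPHOS results was not tested.

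Few OXPHOS genes passed the test, and nearly all changes were small. With ACBI1, 4 of the 91 rose and 1 fell (edgeR quasi-likelihood test, Benjamini-Hochberg adjusted p under 0.05 over all genes tested). That is 5 of 91, or 5.49%, against 17.4% of all 19159 genes, of which 6.75% rose and 10.6% fell. The log2 changes of the 91 ran from -0.79 to 0.94, and none reached 1 in size, which 22.6% of all genes tested did. The fitted change was positive in 72 of the 91, or 79.1%, and in 50.4% of all genes. Both ACBI1 libraries lay above both DMSO libraries for 48 members and below them for 6, and the groups overlapped for 37, whereas 31.1% of all genes lay above and 32.2% below. An unadjusted p under 0.05 was reached by 17 members with a positive and 3 with a negative change. Of all genes, 15.4% reached it with a positive and 18.5% with a negative change (33.9% in either direction). The median log2 change was 0.21 for the mitochondrial genes and 0.24 for the nuclear genes, beside 0.01 for all genes tested. In RNA from a whole culture, fewer cells of a kind and less RNA per cell cannot be told apart.

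With scaling by library size alone, 12 members rose and 1 fell, and 9.16% of all genes rose and 9.74% fell. The added 8 genes included NDUFA6, SDHB, ATP5F1B, COX6C, NDUFB7 and NDUFB2, whose adjusted p-values in edgeR had been between 0.0510 and 0.0656. DESeq2 called 9 members higher and 1 lower, beside 9.95% and 13.6% of all genes. At an adjusted p under 0.01, no member was called, beside 4.09% of all genes.

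**Figure D1:**
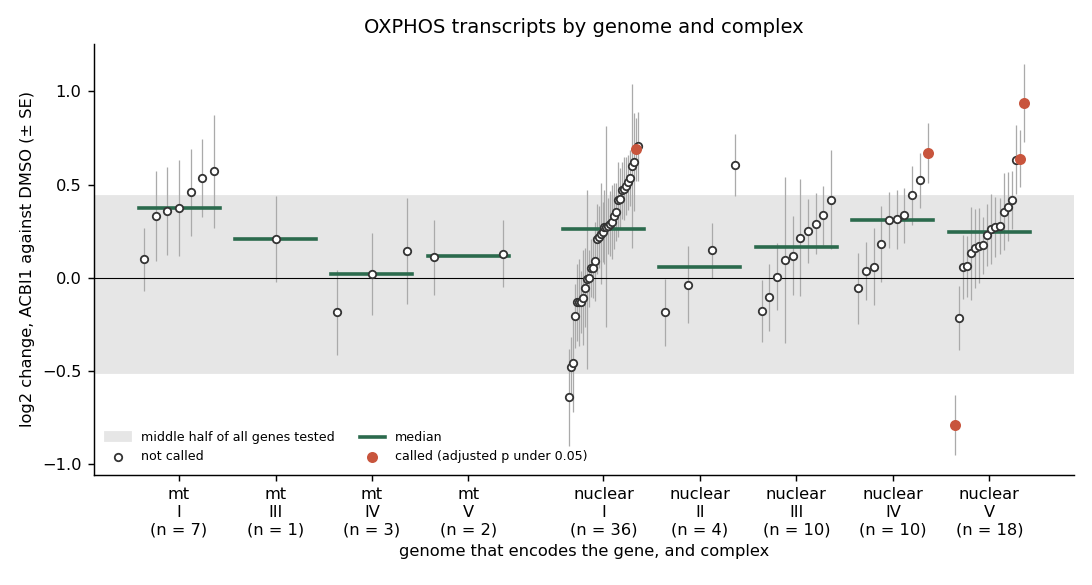
Log2 change of ACBI1 against DMSO (± SE, vertical axis) for the 91 OXPHOS genes, arranged by the genome that encodes them and by complex. Filled points are the 5 called genes, green bars are medians, and the grey band is the interquartile range of all genes tested (-0.51 to 0.44). Most open points sit above 0, with ATP5MC1 at the top (0.94) and ATP5IF1 at the bottom (-0.79).

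The 4 genes that rose belong to complexes I, IV and V, and the 1 that fell encodes the inhibitor of complex V. ATP5MC1 encodes subunit c, the protein that forms the rotating ring of ATP synthase. It measured 58.5 and 42.8 CPM in DMSO and 106 and 88.2 CPM in ACBI1. Both ACBI1 libraries lay above both DMSO libraries, with a log2 change of 0.94 (SE 0.21, a fold of 1.92, edgeR adjusted p = 0.0318). ATP5IF1 encodes the inhibitory factor that blocks ATP hydrolysis when the enzyme runs in reverse. It measured 36.8 and 34.0 CPM in DMSO and 21.3 and 19.7 CPM in ACBI1. Both ACBI1 libraries lay below both DMSO libraries, with a log2 change of -0.79 (SE 0.16, a fold of 0.578, edgeR adjusted p = 0.0256).

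The genes that moved furthest in each direction thus both belong to complex V, and the 250 bases before their start sites are shown because they differ in the number of CCAAT boxes and in the cyclic AMP response element. ATP5MC1 (chr17:48892537-48892786, plus strand) held the CCAAT box 4 times and the cyclic AMP response element TGACGTCA once, in capitals. ATP5IF1 (chr1:28235874-28236123, plus strand) held the CCAAT box once, on the minus strand, where it reads ATTGG in capitals. Both sequences are from RefSeq on GRCh38.p14, 5′ to 3′.
ATP5MC1: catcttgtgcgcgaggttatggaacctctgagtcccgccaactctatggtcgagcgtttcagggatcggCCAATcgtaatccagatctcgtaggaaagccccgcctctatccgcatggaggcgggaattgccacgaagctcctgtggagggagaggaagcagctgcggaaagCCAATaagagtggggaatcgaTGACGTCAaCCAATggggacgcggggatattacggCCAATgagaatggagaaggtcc
ATP5IF1: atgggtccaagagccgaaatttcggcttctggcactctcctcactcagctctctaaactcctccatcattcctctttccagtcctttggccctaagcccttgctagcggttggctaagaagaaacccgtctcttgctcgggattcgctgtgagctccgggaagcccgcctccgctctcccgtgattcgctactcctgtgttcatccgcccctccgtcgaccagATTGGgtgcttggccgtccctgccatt
Of 63 nuclear members with an entry in the RefSeq promoter table, 22 (34.9%) held CCAAT on either strand within 300 bases around a start site, beside 42.3% of the 12359 tested genes with an entry. Windows with 4 or more were found for 3 members, ATP5MC1 among them, and for 1.89% of tested genes. TGACGTCA was present in 5 members (7.94%) and in 3.70% of tested genes. Neither motif was in a window of COX5A or NDUFB10, which also rose. Both motifs were picked after the sequences had been seen.

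The binding motifs of known regulators of OXPHOS genes were searched in the same windows on both strands, and none was in a window of ATP5MC1, ATP5IF1, COX5A or NDUFB10. The NRF1 motif was in 4 members (6.35%), namely ATP5F1C, NDUFA8, NDUFB4 and SDHD, and in 2.51% of tested genes. The YY1 motif was also in 4 (NDUFA9, NDUFS4, SDHB and UQCRC1), beside 2.12% of tested genes. The ETS motif CCGGAAGTG, bound by GABPA, was in 4 (ATP5MK, NDUFA13, NDUFS1 and UQCRH), beside 5.22%. The ESRRA motif TCAAGGTCA was in SDHD alone, beside 0.267%. These matches describe letters in a window and show no binding.

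The other 3 genes that rose encode subunits of separate complexes. COX5A, which encodes a matrix-side subunit of complex IV, measured 126 and 112 CPM in DMSO and 194 and 185 CPM in ACBI1 (log2 change 0.67, SE 0.16, edgeR adjusted p = 0.0387). ATP5F1D, which encodes the delta subunit of the central stalk of ATP synthase, measured 122.6 and 121 CPM in DMSO and 186 and 193 CPM in ACBI1 (log2 change 0.64, SE 0.15, edgeR adjusted p = 0.0384). NDUFB10, which encodes an accessory subunit of the membrane arm of complex I, measured 48.0 and 57.5 CPM in DMSO and 80.1 and 90.0 CPM in ACBI1 (log2 change 0.69, SE 0.17, edgeR adjusted p = 0.0416). For each of the 3, both ACBI1 libraries lay above both DMSO libraries.

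The 5 calls held with DESeq2, with limma-voom and under each other scaling and filter tried at the same threshold with all 4 libraries. None of the 5 held in every fit with 1 library fewer, and ATP5F1D was called in none of those fits. Without DMSO replicate 1, 6 nuclear members rose, among them ATP5MC1 and COX5A, and none fell, beside 8.21% and 13.1% of all genes. Without DMSO replicate 2, NDUFB10 alone rose and ATP5IF1 alone fell, beside 4.26% and 8.57%. With either ACBI1 library left out, no member was called, while 6.89% of all genes were called without replicate 1 and 8.84% without replicate 2. The log2 changes of the 5 genes kept their signs in each of these fits.

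**Figure D2:**
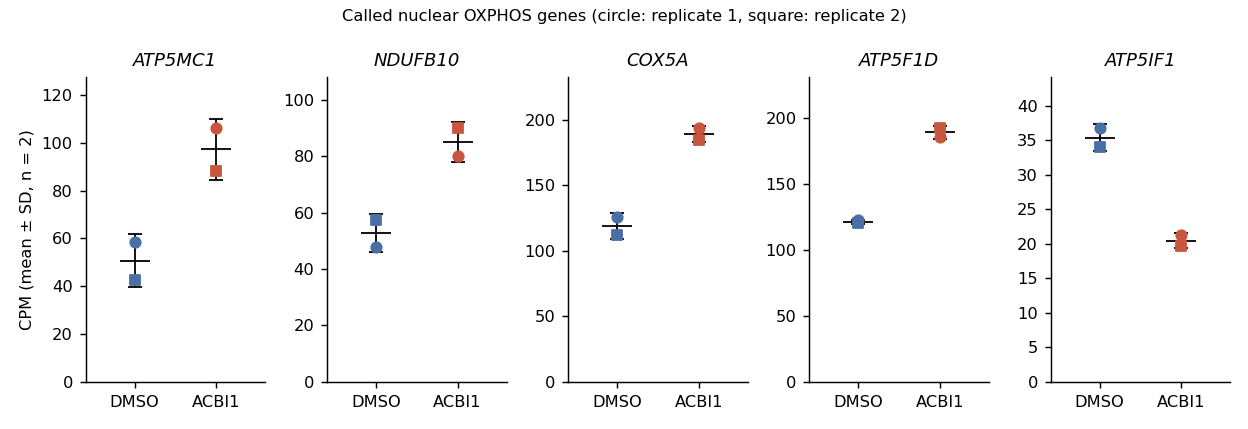
CPM in each library for the 5 called nuclear OXPHOS genes, by treatment, with the mean and SD of 2 libraries. Circles are replicate 1 and squares replicate 2. In each panel the DMSO and ACBI1 points are apart, with ATP5IF1 lower in ACBI1 and the other 4 genes higher.

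Among the mitochondrial genes, none was called, beside 17.4% of all genes. MT-ND1 alone had an unadjusted p under 0.05, as did 33.9% of all genes. DESeq2 and limma-voom also called none, beside 23.5% and 17.3% of all genes. MT-ND2 was called when every gene with a count was kept in the test (edgeR adjusted p = 0.0374). Of the 13, 12 had a positive change, beside 50.4% of all genes. Both ACBI1 libraries lay above DMSO for 6 of them, all complex I genes, beside 31.1% of all genes. The median was 0.38 for the 7 complex I genes, 0.02 for the 3 complex IV genes and 0.12 for the 2 complex V genes, and MT-CYB, the cytochrome b of complex III, was at 0.21 (edgeR adjusted p = 0.579). A group's median rested on single libraries: over all 13 genes it was 0.46 without DMSO replicate 1 and 0.02 without DMSO replicate 2. DMSO replicate 2 had the lowest summed CPM of these genes, 33912, beside 46829 in DMSO replicate 1 and 43747 and 47185 in ACBI1.

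MT-ND1 (chrM:3307-4262, plus strand, GRCh38 as annotated in GENCODE 29) encodes a core subunit of complex I at the junction of its arms. It measured 2276 and 1777 CPM in DMSO and 2809 and 3076 CPM in ACBI1. The groups did not overlap, the log2 change was 0.54 (SE 0.21), and the edgeR adjusted p was 0.131. MT-ND2 (chrM:4470-5511), a proton-pumping subunit of the membrane arm, measured 2823 and 1613 CPM in DMSO and 2974 and 3621 CPM in ACBI1, a log2 change of 0.57 (edgeR adjusted p = 0.238). Here the DMSO libraries differed from each other by more than DMSO replicate 1 differed from ACBI1 replicate 1. Without DMSO replicate 1, both genes were called, MT-ND1 at an edgeR adjusted p of 0.0473 and MT-ND2 at 0.010.

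MT-ND4 and MT-ND5 encode the other large proton-pumping subunits. MT-ND4 measured 6700 and 4680 CPM in DMSO and 6808 and 7512 CPM in ACBI1 (log2 change 0.33, edgeR adjusted p = 0.387). MT-ND5 measured 3066 and 2210 CPM in DMSO and 3860 and 3388 CPM in ACBI1 (log2 change 0.46, edgeR adjusted p = 0.221). The small subunit genes MT-ND4L and MT-ND3 had log2 changes of 0.36 and 0.10. In both, DMSO replicate 1 lay just below ACBI1 replicate 1, at 651 beside 654 CPM for MT-ND4L and 608 beside 616 CPM for MT-ND3. MT-ND6, the only one encoded by the other strand, had 85.1 and 76.7 CPM in DMSO and 78.8 and 131 CPM in ACBI1. Its groups overlapped, and its log2 change of 0.38 became -0.05 without ACBI1 replicate 2.

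MT-CO1 (chrM:5904-7445, plus strand) encodes the catalytic subunit of complex IV. It measured 10472 and 7828 CPM in DMSO and 7881 and 8211 CPM in ACBI1, so that the groups overlapped. Its log2 change of -0.19 (SE 0.23, edgeR adjusted p = 0.614) was the single negative one of the 13, and it was 0.04 without DMSO replicate 1. MT-CO2 and MT-CO3, the other core subunits of complex IV, had log2 changes of 0.02 and 0.14 with overlapping groups. MT-CO2 turned to -0.04 with an offset for GC content and length, and both were negative without DMSO replicate 2.

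**Figure D3:**
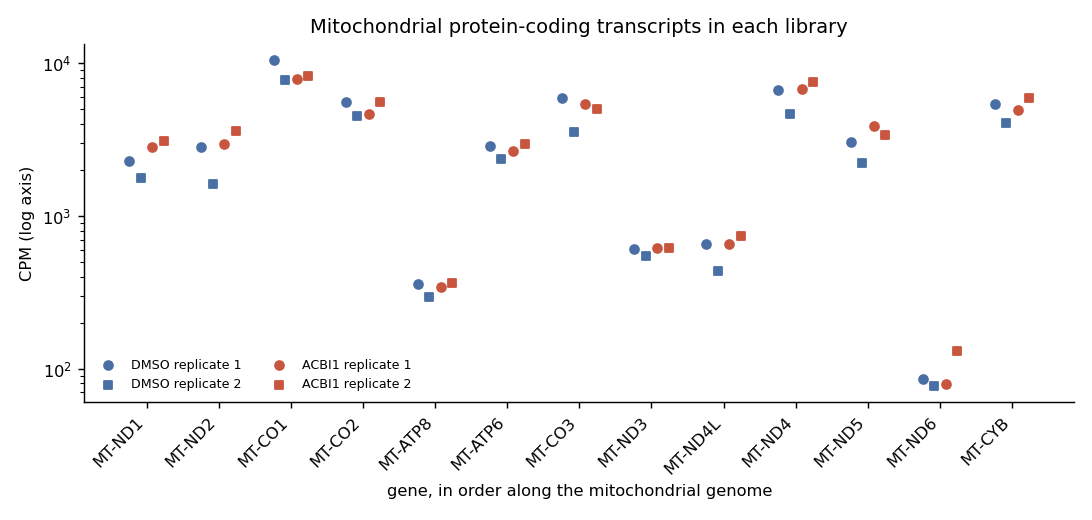
CPM (log axis) of the 13 mitochondrial protein-coding genes in each library, in their order along the genome. Circles are replicate 1 and squares replicate 2, blue for DMSO and red for ACBI1. For MT-ND1, MT-ND2 and MT-ND5 both red points lie above both blue points, and for MT-CO1, MT-CO2 and MT-CO3 the colours overlap.

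Ratios within a library do not depend on scaling. The ratio between complexes of the mitochondrial genome was picked after the values of its genes had been seen, so it is a description. Summed counts of the 7 mitochondrial complex I genes, divided by those of the 3 complex IV genes, were 0.736 and 0.716 in DMSO and 0.989 and 1.02 in ACBI1. The groups did not overlap, and the mean ratio was higher in ACBI1 by 0.47 on the log2 scale. An exact permutation test of 2 against 2 libraries cannot go below a two-sided p of 0.333, so no such difference can pass it. The ratio was higher by 0.40 without MT-ND4 and MT-CO1, the most abundant gene on each side, and by 0.45 to 0.49 with any library left out. The single pair MT-CO1 to MT-ND1, picked in the same way, was 4.60 and 4.40 in DMSO and 2.81 and 2.67 in ACBI1.

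The nuclear genes of the same complexes gave no such separation. Nuclear complex I counts divided by nuclear complex IV counts were 2.96 and 2.46 in DMSO and 2.90 and 2.53 in ACBI1, with overlapping groups (exact permutation p = 1). The ratio of all mitochondrial to all nuclear members was 7.75 and 5.73 in DMSO and 5.90 and 6.35 in ACBI1. The ACBI1 values lay between the DMSO values (exact permutation p = 1), and the log2 difference of the means, -0.14, was 0.10 without DMSO replicate 1. By complex, this ratio overlapped between groups for complexes I, III and IV. For complex V it was 1.38 and 1.14 in DMSO and 0.999 and 1.10 in ACBI1, without overlap (exact permutation p = 0.333).

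The nuclear members took 0.579% and 0.582% of gene counts in DMSO and 0.771% and 0.758% in ACBI1, without overlap and with little spread in either group. The mitochondrial members took 4.48% and 3.33% in DMSO and 4.55% and 4.81% in ACBI1. The mitochondrial share did not overlap either, but the DMSO libraries differed from each other by more than DMSO replicate 1 differed from either ACBI1 library. As summed CPM, with the scaling used for the tests, the mitochondrial members did overlap between groups (46829 and 33912 in DMSO, 43747 and 47185 in ACBI1).

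**Figure D4:**
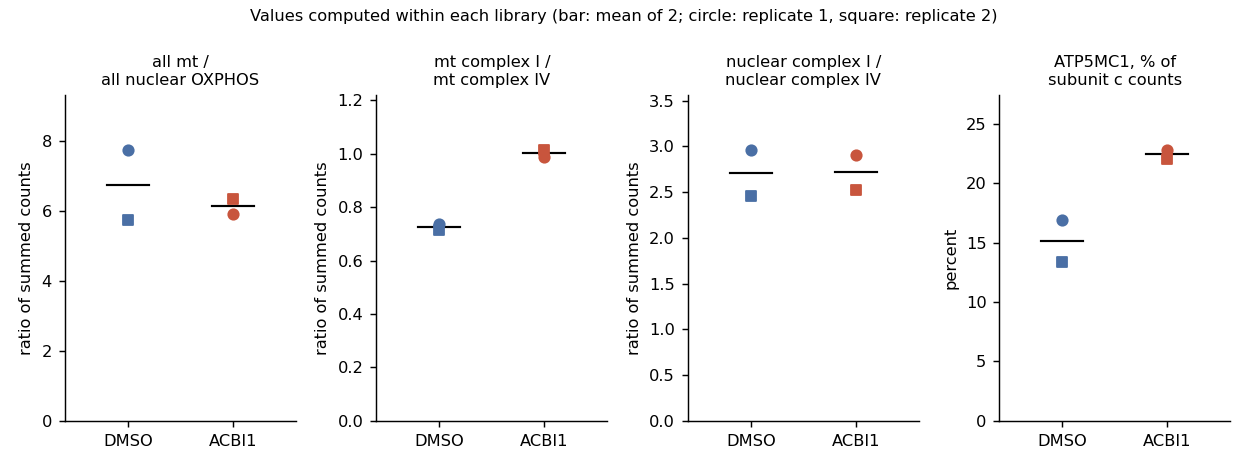
Values computed within each library, by treatment, with the mean of 2 libraries as a bar, circles for replicate 1 and squares for replicate 2. The ratio of mitochondrial complex I to complex IV (0.736 and 0.716 against 0.989 and 1.02) and the ATP5MC1 share of subunit c counts separate the groups, and the other ratios overlap.

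Complex I is the entry point for electrons from NADH and has the most nuclear subunits, 36 of the 78. Their median log2 change was 0.26, 19 lay above DMSO in both ACBI1 libraries and 4 below, beside 31.1% and 32.2% of all genes, and NDUFB10 alone was called, beside 17.4%. In the module that takes electrons from NADH (10 genes), the median was 0.35. NDUFA6, an accessory subunit counted here with that module, measured 22.9 and 18.4 CPM in DMSO and 35.8 and 31.5 CPM in ACBI1. Its log2 change of 0.70 was the highest of complex I and missed the threshold (edgeR adjusted p = 0.0510). The median was 0.17 over the 6 genes of the ubiquinone-binding module and 0.23 over the 20 genes of the membrane arm.

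Some complex I genes went the other way without passing the test. NDUFC2, a small membrane arm subunit, measured 6.26 and 7.59 CPM in DMSO and 4.41 and 4.47 CPM in ACBI1 (log2 change -0.64, edgeR adjusted p = 0.146). NDUFV3, an accessory subunit of the NADH-binding tip, measured 33.9 and 33.7 CPM in DMSO and 22.8 and 25.7 CPM in ACBI1 (log2 change -0.48, edgeR adjusted p = 0.0938). In both, each ACBI1 library lay below each DMSO library.

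Complex II, succinate dehydrogenase, showed no call among its 4 genes (3331 of 19159 genes were called in all), and SDHB alone had an unadjusted p under 0.05. DESeq2 called SDHB. SDHB, which carries the iron-sulfur clusters, measured 97.0 and 82.6 CPM in DMSO and 132 and 141 CPM in ACBI1 (log2 change 0.60, edgeR adjusted p = 0.0548). SDHA, the flavoprotein, was at 12.6 and 12.8 CPM in DMSO and 11.3 and 13.4 CPM in ACBI1, so that its groups overlapped. The membrane anchor SDHC had the lowest change, -0.18, which was 0.00 without DMSO replicate 2.

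In complex III, none of the 10 nuclear genes was called by edgeR, DESeq2 or limma-voom, and none had an unadjusted p under 0.05. The shares of all genes called were 17.4% (edgeR), 23.5% (DESeq2) and 17.3% (limma-voom), and 33.9% had an unadjusted p under 0.05. The median log2 change of the 10 genes was 0.17. UQCR11, a small subunit, was highest at 0.42, with 7.09 and 8.02 CPM in DMSO and 8.42 and 11.8 CPM in ACBI1 (edgeR adjusted p = 0.317). UQCRQ, another small subunit, was lowest at -0.18. The 10 include the pseudogene UQCRFS1P1 and the copy UQCRHL, whose reads cannot be told with certainty from those of UQCRFS1 and UQCRH.

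Of 6 tested OXPHOS genes that the symbol patterns miss, 2 rose and 1 fell, beside 6.75% and 10.6% of all genes. CYC1, the cytochrome c1 of complex III, measured 158 and 123.4 CPM in DMSO and 235 and 232 CPM in ACBI1 (log2 change 0.73, edgeR adjusted p = 0.0444, and 0.0698 with an offset for GC content and length). CYCS encodes cytochrome c, the carrier from complex III to complex IV. It measured 129 and 95.0 CPM in DMSO and 187 and 189 CPM in ACBI1 (log2 change 0.75, edgeR adjusted p = 0.0490). Both rose, with no overlap between groups, and both lost the call without some of the libraries. NDUFA4L2, a paralogue of the complex IV subunit NDUFA4 known as a hypoxia target, measured 2.84 and 2.88 CPM in DMSO and 1.23 and 1.28 CPM in ACBI1. It fell by 1.19 on the log2 scale at an edgeR adjusted p of 0.050, just under the threshold, and at 0.0616 with scaling by library size alone. The call of NDUFA4L2 was lost with any library left out, at log2 changes of -1.23 to -1.15. COX4I1, the main isoform of subunit 4, had a log2 change of 0.23, and NDUFAB1, the acyl carrier protein of complex I, one of 0.46 (edgeR adjusted p = 0.0936).

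In complex IV, the 10 nuclear members had a median log2 change of 0.31. Both ACBI1 libraries of 6 members lay above DMSO, beside 31.1% of all genes, and COX5A alone was called. COX6C measured 43.9 and 42.8 CPM in DMSO and 60.1 and 64.4 CPM in ACBI1 (log2 change 0.52, edgeR adjusted p = 0.0596). Complex IV has isoform pairs, 1 of them used in most tissues and the other in muscle, testis or other restricted tissues. Of the common forms, COX6A1 had a log2 change of 0.44 (edgeR adjusted p = 0.109), COX8A of 0.31, COX7A2 of 0.04 and COX6B1 of -0.06. COX7A2 was -0.02 with an offset for GC content and length, and COX6B1 was 0.03 with scaling by library size alone. The restricted forms were at or near 0 in both groups: COX6A2, COX7B2 and COX4I2 had no count in any library, COX7A1 had 1 count in all, COX8C had at most 2 in a library and COX6B2 at most 4. A count of 0 allows up to 0.0349 to 0.0467 CPM, taken as 3 counts of a library and covering counting error only. None of these forms was detectable as different at this depth.

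Complex V had 18 nuclear members, of which 2 rose and 1 fell. These 3 calls are 16.7% of the 18, near the 17.4% of all genes. Both ACBI1 libraries lay above both DMSO libraries for 11 members, beside 31.1% of all genes. The median was 0.38 over the 5 genes of the catalytic head and central stalk, 0.26 over the 3 subunit c genes, 0.27 over the 4 genes of the peripheral stalk and 0.17 over the 5 small membrane subunits. ATP5F1B, the catalytic beta subunit, measured 606 and 501 CPM in DMSO and 887 and 831 CPM in ACBI1 (log2 change 0.63, edgeR adjusted p = 0.0656). ATP5F1C, the gamma subunit that turns inside the head, was at 156 and 188 CPM in DMSO and at 143 and 153 CPM in ACBI1 (log2 change -0.22, edgeR adjusted p = 0.429). ATP5F1B was thus above DMSO in both ACBI1 libraries and ATP5F1C below it, and neither passed the test. Counts of ATP5IF1 per 100 counts of ATP5F1B were 6.07 and 6.78 in DMSO and 2.40 and 2.36 in ACBI1, a pair picked after its values were seen.

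ATP5MC1, ATP5MC2 and ATP5MC3 encode the same mature subunit c with different import sequences. ATP5MC2 had a log2 change of 0.26 (edgeR adjusted p = 0.382) and ATP5MC3 of 0.23 (edgeR adjusted p = 0.374). The share of ATP5MC1 among the counts of the 3 genes was 16.9% and 13.4% in DMSO and 22.8% and 22.0% in ACBI1. The groups did not overlap (exact permutation p = 0.333), and ATP5MC2 had the most counts of the 3 in every library. Subunit c genes have many processed copies, so reads shared with them may be missing from the counts.

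The mitochondrial complex V genes MT-ATP8 and MT-ATP6 lie on 1 transcript and share 46 bases, where the reading frame of MT-ATP6 starts before that of MT-ATP8 has ended. The stretch is shown because reads inside it belong to both genes (chrM:8527-8572, GRCh38, plus strand, 5′ to 3′). Capitals mark the start codon of MT-ATP6 and the last 3 bases of MT-ATP8.
MT-ATP8 and MT-ATP6: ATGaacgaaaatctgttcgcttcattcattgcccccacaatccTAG
It makes up 22.2% of MT-ATP8 and 6.75% of MT-ATP6. MT-ATP8 measured 356 and 293 CPM in DMSO and 343 and 366 CPM in ACBI1, and MT-ATP6 2856 and 2359 CPM in DMSO and 2650 and 2977 CPM in ACBI1. Their log2 changes, 0.13 and 0.11, were alike, and both became negative without DMSO replicate 2.

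Levels differed far more between the genomes than between treatments. Per kilobase of transcript, the mitochondrial genes in DMSO ran from 154 CPM for MT-ND6 and 1456 for MT-ND5 up to 7383 for MT-CO2. The highest nuclear level in DMSO was 301 CPM per kilobase, for ATP5F1B, followed by NDUFV1 at 253. Within complex I, NDUFV1 and NDUFV2 encode partner subunits of the NADH-binding tip, and NDUFV2 stood at 0.592 CPM per kilobase. NDUFA7 and NDUFA13 were also low, at 0.216 and 0.491 CPM per kilobase. In the GENCODE 29 annotation, 28.4% of the exon bases of NDUFV2, 33.5% of those of NDUFA7 and 21.0% of those of NDUFA13 lie within exons of another gene. Some members with higher levels overlap more, such as ATP5ME (61.6%, at 90.0 CPM per kilobase in DMSO) and NDUFS7 (49.1%, at 55.4). The strand setting of the counting is not given in the sources used here, and the part of overlap and of near-identical copies in these low levels was not tested.

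Nuclear copies of mitochondrial genes also take reads. MTATP6P1 had 16.1 and 16.0 counts per 100 counts of MT-ATP6 in DMSO and 16.2 and 16.0 in ACBI1. MTND2P28 had 2.97 to 3.11 per 100 of MT-ND2, and MTCO1P12 had 0.278 to 0.304 per 100 of MT-CO1. These ratios were nearly constant over the libraries. The log2 changes of all 7 copies tested ran from -0.87 to 0.60. Whether the reads of the copies came from the mitochondrial genes was not tested.

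Other genes that mitochondria need to make OXPHOS complexes were read from lists, beside the 6.75% of all genes that rose and the 10.6% that fell. At an unadjusted p under 0.05, 15.4% of all genes were higher and 18.5% lower. DESeq2 called 9.95% of all genes higher and 13.6% lower. These shares apply to every list below. Among 17 genes of mitochondrial DNA replication and transcription, 4 rose and none fell, with a median log2 change of 0.44. At an unadjusted p under 0.05, 8 were higher and none lower, and DESeq2 called 6 higher and none lower. POLRMT, the mitochondrial RNA polymerase, measured 154 and 95.8 CPM in DMSO and 298 and 284 CPM in ACBI1 (log2 change 1.22, SE 0.25, edgeR adjusted p = 0.0268). The other 3 were MTERF3, a transcription and ribosome assembly factor (0.86), TOP1MT, the mitochondrial topoisomerase (0.80), and TWNK, the replicative helicase (0.79). TFAM, which packages mitochondrial DNA, was at 60.1 and 52.8 CPM in DMSO and 75.6 and 72.3 CPM in ACBI1, a log2 change of 0.39 that did not pass the test (edgeR adjusted p = 0.136). The mitochondrial rRNA genes gave no call in edgeR, DESeq2 or limma-voom and no unadjusted p under 0.05: MT-RNR1 had a log2 change of 0.22 and MT-RNR2 of -0.16. Of 11 tested mitochondrial tRNA genes, edgeR called none, 2 were higher at an unadjusted p under 0.05, and DESeq2 called 1 higher.

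Among 17 genes of mitochondrial RNA processing and stability, 3 rose and none fell, with a median of 0.31. At an unadjusted p under 0.05, 7 were higher and none lower, beside 15.4% and 18.5% of all genes. DESeq2 and limma-voom each called 3 higher, beside 9.95% and 6.83% of all genes. LRPPRC and SLIRP encode partner proteins of a complex that stabilises mitochondrial mRNAs. LRPPRC measured 154 and 117 CPM in DMSO and 242 and 225 CPM in ACBI1 (log2 change 0.79, edgeR adjusted p = 0.0419). SLIRP measured 29.8 and 23.3 CPM in DMSO and 52.0 and 44.6 CPM in ACBI1 (log2 change 0.86, edgeR adjusted p = 0.0311). TBRG4, another RNA-binding protein of mitochondria, rose by 0.67. In all 3 the groups did not overlap.

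Of 77 tested genes of the mitochondrial ribosome, which translates the 13 mitochondrial mRNAs, 8 rose and none fell, with a median of 0.32. The 8 make up 10.4%, beside 6.75% of all genes that rose and 17.4% called in either direction. At an unadjusted p under 0.05, 20 of the 77 were higher and 1 lower, beside 15.4% and 18.5% of all genes. DESeq2 called 12 higher and 1 lower, beside 9.95% and 13.6% of all genes. Among the called genes MRPS34 had the largest change, from 86.3 and 94.4 CPM in DMSO to 167 and 187 CPM in ACBI1 (log2 change 0.97, SE 0.16, edgeR adjusted p = 0.0147). MRPL15, MRPL24 and MRPL11 rose by 0.91, 0.87 and 0.76. The call of MRPL24 was lost with an offset for GC content and length (edgeR adjusted p = 0.0528).

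Of 55 tested assembly factors, which build the complexes without being part of them, 5 rose and none fell, with a median of 0.12. The 5 make up 9.09%, beside 6.75% of all genes that rose and 17.4% called in either direction. At an unadjusted p under 0.05, 15 of the 55 were higher and 1 lower, beside 15.4% and 18.5% of all genes. DESeq2 called 9 higher and none lower, beside 9.95% and 13.6% of all genes. The edgeR calls for complex I were ECSIT (0.96) and DMAC1 (0.80). For complex IV they were COX20, a chaperone of the MT-CO2 protein (1.15), COA7 (0.82) and COX10, an enzyme of heme a synthesis (0.78). No assembly factor of complexes II, III or V was called by edgeR, DESeq2 or limma-voom, and 2 of complex III were higher at an unadjusted p under 0.05. COX20 missed the threshold with limma-voom (adjusted p = 0.0529).

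Of 9 tested nuclear regulators of mitochondrial genes, the 2 coactivators PPARGC1B and PPRC1 rose, and none fell. At an unadjusted p under 0.05, these 2 were higher and 1 was lower, and DESeq2 called the same number as edgeR. PPARGC1B measured 24.3 and 20.0 CPM in DMSO and 45.2 and 47.2 CPM in ACBI1 (log2 change 1.06, SE 0.17, edgeR adjusted p = 0.0134). PPRC1 measured 92.8 and 69.7 CPM in DMSO and 159 and 158 CPM in ACBI1 (log2 change 0.96, edgeR adjusted p = 0.0236). Their relative PPARGC1A was at 0.236 CPM or less in every library. The receptor ESRRA was at 112 and 97.7 CPM in DMSO and 61.4 and 79.3 CPM in ACBI1, a log2 change of -0.58 that did not pass the test (edgeR adjusted p = 0.0878). In the TCA cycle, which supplies NADH and succinate, MDH2, the malate dehydrogenase of mitochondria, rose by 0.78 (edgeR adjusted p = 0.0279), and no gene of the list fell by edgeR, DESeq2 or limma-voom, although 1 had a negative change with an unadjusted p under 0.05.

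**Figure D5:**
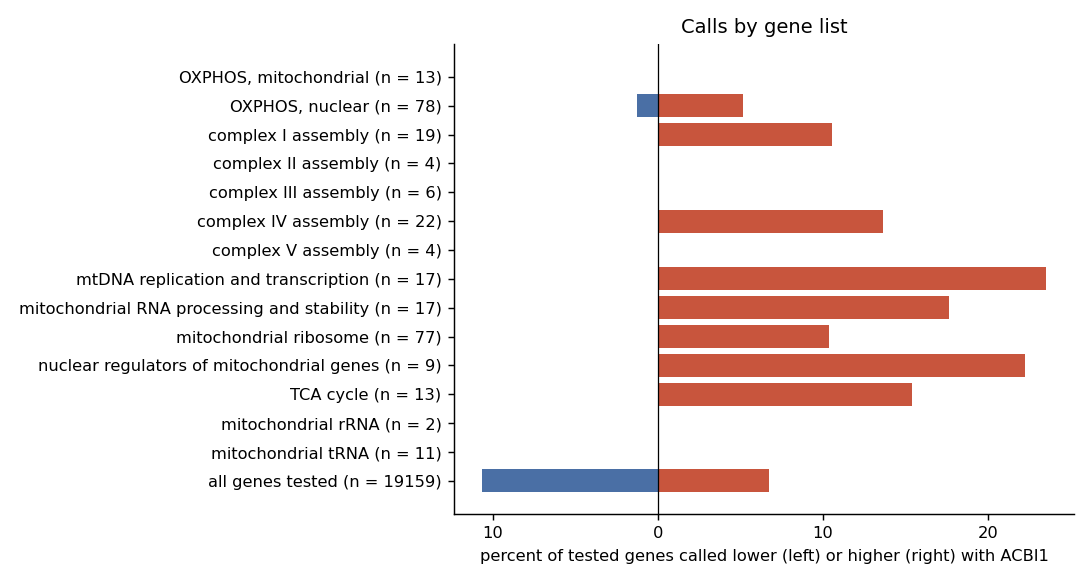
Percent of tested genes in each list called higher (right, red) or lower (left, blue) with ACBI1, with the number tested beside each name. The mitochondrial OXPHOS genes have no bar, and the nuclear OXPHOS genes sit below the 6.75% of all genes that rose. The lists of mitochondrial DNA replication and transcription, RNA processing and ribosome sit above it, with no gene called lower. The same holds for complex I assembly (10.5%), complex IV assembly (13.6%), the nuclear regulators (22.2%) and the TCA cycle (15.4%). The mitochondrial rRNA and tRNA lists and the assembly lists of complexes II, III and V have no bar either.

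No test of a list was made. Each gene named from a list as risen kept its sign with any library left out, and each lost its call in at least 1 of those fits, with a highest edgeR adjusted p of 0.0506 for PPARGC1B to 0.202 for DMAC1. Every call compares the same 4 libraries, so the lists are not separate evidence of a direction.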

How the data were processed

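Total RNA from 4 libraries of H1792 cells was sequenced. The deposited values are raw counts of reads per gene symbol, not normalized by the authors. The submitters' processing notes name TopHat2 2.1.1, HTSeq 0.11.0 and build hg38. The annotation and strand setting are not given in the sources used here, and the library kit named is sold for DNA libraries. Reads given to no gene (13.9% to 15.4% of those listed) were left out.

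Genes were filtered with edgeR 4.0.16 in R 4.3.3 (filterByExpr, minimum count 10, minimum total 15), scaled by TMM and tested with the quasi-likelihood test on treatment, two-sided, with Benjamini-Hochberg adjustment over 19159 genes and calls at an adjusted p under 0.05. The common biological coefficient of variation was 0.244. CPM use TMM-scaled library sizes, and SE is the log2 change divided by the square root of F. Nothing says that the replicates were separate cultures, so p-values measure only the spread between these libraries, which may be technical. Single values over libraries were tested by exact permutation. Alternatives were DESeq2 1.42.0, limma 3.58.1 (voom), other scalings and filters, GC and length offsets, a replicate block and each library left out. The test script was tested on simulated counts. Positions and lengths are from GENCODE 29 on GRCh38, which matched 56993 features.

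The members and lists were chosen with earlier results of these data known. Named genes are the 13 mitochondrial genes, called members, the highest and lowest of each complex, paralogue pairs, up to 4 called genes of each list with the largest change, and COX4I1, COX4I2, CYC1, CYCS, NDUFAB1 and NDUFA4L2. COX6C, NDUFB7, NDUFB2, ATP5F1B and other genes outside this rule were chosen after their values were seen. A result on a single gene that the rule would name is not reported here.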

Additional observations from a re-analysis of the deposited data

How the results depend on the processing

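The 59 named genes were refitted in 10 ways with all 4 libraries: 542 of 589 values kept their sign and side of the threshold, 38 gained a call, 4 lost one and 5 changed sign. Mitochondrial genes called higher numbered 0, but 1 with every gene with a count kept (MT-ND2), 1 with the replicate block (MT-ND1), and 0 to 2 with a library left out. Nuclear genes called higher numbered 4, but 12 with library size only, 8 with every gene with a count, 9 with DESeq2, 0 at an adjusted p under 0.01, and 0 to 6 with a library left out. Nuclear genes called lower numbered 1, but 0 at an adjusted p under 0.01 and 0 to 1 with a library left out. With a library left out, 1 group has a lone library that is assumed to vary like the other group. Keeping every gene with a count, 6.70% of all genes were called higher.

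When the fit carried a replicate block, 19 nuclear genes were called higher and 3 lower, and 21 and 3 with the GC and length offsets added, beside 41.3% and 39.8% of all genes in either direction. The block kept all 5 calls. Same-numbered libraries deviated together (correlation 0.442), but there are only 2 pairs and the labels give them no shared batch, so they share only a number.

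With a library left out, the mitochondrial median ran from 0.018 to 0.46, the nuclear median from 0.18 to 0.30 (0.33 with library size only, which moved the median of all genes to 0.09), the log2 difference in the mitochondrial to nuclear ratio from -0.34 to 0.097, that in the mitochondrial complex I to IV ratio from 0.45 to 0.49 (0.40 without MT-ND4 and MT-CO1), and that in the ATP5MC1 share from 0.41 to 0.74. Both of the last were added after seeing the data. Signs that turned with a library left out were those of MT-ATP6 (-0.026 to 0.26), MT-ATP8 (-0.0081 to 0.28), MT-CO1 (-0.38 to 0.044), MT-CO2 (-0.14 to 0.19), MT-CO3 (-0.19 to 0.57), MT-ND6 (-0.047 to 0.71), SDHC (-0.35 to 0.0016), COX6B1 (-0.22 to 0.14) and COX7A2 (-0.040 to 0.12). With GC and length offsets MT-CO2 was -0.039 and COX7A2 -0.019, with the block added -0.034 and -0.019, and COX6B1 was 0.027 with library size only. None of these genes was called. The causes were not tested.

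Members with few counts were measured least precisely: NDUFA7, NDUFA13, UQCRHL and NDUFV2 had SEs of 0.54, 0.48, 0.45 and 0.44.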
